A study of Mus musculus with 4 samples.

Results

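The antiviral interferon-stimulated genes (ISGs) described here are 35 genes whose symbols were matched exactly to the gene names of the deposited count table, out of 56748 genes listed there. All 35 were found, all 35 had enough counts to be tested, and the lowest count of any member in a library was 15. The members were chosen by name and function, with earlier results of these data already known. The table holds 4 RNA-seq libraries of the small intestine (SI) of mice, collected 1 day post 12 Gy total-body irradiation (TBI). Libraries 7 and 8 were from wild-type (WT, p53+/+) mice and libraries 9 and 10 from p53-/- mice, so that each genotype had 2 libraries. The p53-/- mice lacked p53 in the whole body, and per the study's methods both lines came from the Jackson Laboratory and the adult mice compared were matched for age and sex. All 4 mice were irradiated, so no unirradiated SI was compared here, and the comparison asks how irradiated SI differed with and without p53. Because whole SI was sequenced, more cells that express a gene and more RNA of it per cell cannot be told apart.

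Interferons are secreted signals that cells release on sensing viral or misplaced nucleic acid. Type I and type III interferons act through receptors, the kinases Jak1 and Tyk2, and a complex with Stat2 and Irf9 that binds the interferon-stimulated response element (ISRE). Interferon gamma, made mainly by T cells and NK cells, acts through the gamma-activated site (GAS). The genes switched on include sensors of viral RNA, nucleases, blockers of virus entry and ubiquitin-like modifiers. In the intestine they guard both the epithelium and the resident leukocytes.

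The promoter windows of the members were searched for the core letters of both elements. RefSeq windows on GRCm38.p6, from 250 bases before to 50 bases after a start, were matched by symbol for 26 of the 35 members (31 windows). The members with no window were Dhx58, Usp18, Mx2, Parp9, Parp14, Ifi27l2a, Rtp4, Mx1 and Oas2. The ISRE core was searched as GAAANNGAA and the GAS core as TTCNNNGAA, on both strands and with overlapping matches kept. At least 1 ISRE core was found in 13 of the 26 members (50.0%), against 8.56% of all 32851 windows and 9.76% of all genes with a window. The GAS core was found in 8 of the 26 members (30.8%), against 8.30% of all windows and 9.55% of all genes with a window. The 130 bases from -150 to -21 are shown for 5 members that hold ISRE cores in this stretch and for Xaf1, the member with the largest log2 fold change, whose window holds none. Each is written 5′ to 3′ on the strand of its gene, with ISRE cores in capitals, and runs of capitals longer than one core are overlapping matches.
Isg15 (chr4:156200839-156200968, minus strand): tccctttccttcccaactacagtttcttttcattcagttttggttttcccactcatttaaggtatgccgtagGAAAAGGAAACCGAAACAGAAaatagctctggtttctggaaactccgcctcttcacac
Ifit1 (chr19:34640739-34640868, plus strand): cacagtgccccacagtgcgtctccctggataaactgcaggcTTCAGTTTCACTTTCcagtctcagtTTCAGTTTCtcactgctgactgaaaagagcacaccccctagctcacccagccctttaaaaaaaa
Ifit3 (chr19:34583379-34583508, plus strand): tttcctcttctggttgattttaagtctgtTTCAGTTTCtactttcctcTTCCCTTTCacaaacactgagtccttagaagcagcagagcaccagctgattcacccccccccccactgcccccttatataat
Oas3 (chr5:120777680-120777809, minus strand): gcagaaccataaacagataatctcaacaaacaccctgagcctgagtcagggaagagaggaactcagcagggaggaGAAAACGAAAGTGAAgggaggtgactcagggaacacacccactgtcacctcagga
Bst2 (chr8:71537493-71537622, minus strand): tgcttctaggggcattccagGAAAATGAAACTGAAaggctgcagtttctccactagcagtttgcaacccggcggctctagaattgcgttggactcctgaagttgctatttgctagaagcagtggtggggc
Xaf1 (chr11:72301479-72301608, plus strand): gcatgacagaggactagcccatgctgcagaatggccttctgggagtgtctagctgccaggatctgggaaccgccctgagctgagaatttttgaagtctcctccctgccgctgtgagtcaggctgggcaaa

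In Isg15 the matches began at -78, -72 and -66 and in Oas3 at -75 and -69, on the strand of the gene. In Ifit1 they began at -109, -103 and -84 and were read on the opposite strand. The stretch of Ifit3 holds the matches at -121 and -102. A match describes letters in a window and is not evidence of binding, and members with an ISRE core in their window were not those with the larger differences. Their median log2 fold change was 1.09 (range -0.03 to 2.25), against 1.49 (range -0.10 to 3.34) for the members whose window had none. Among genes that are not members, the median was 0.09 for the 1004 tested genes with an ISRE core and -0.02 for the 10541 without one.

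The libraries held 15005479 to 22173164 counts. The chi-square per degree of freedom over genes was 52.8 between the WT libraries and 77.3 between the p53-/- libraries, so no library was a repeat deposit of another within counting noise and each was counted as a sample. Library 10 stood apart by its leukocyte transcripts and by the share of its counts on the 18S rRNA gene Rn18s-rs5, at 4.59% against 0.296 to 0.863% in the other 3. Xist, the RNA of the inactive X chromosome of females, had 588 counts in library 10 and 0 to 4 in the others, although the mice compared were described as matched for sex (Xist and Rn18s-rs5 were chosen after their values were seen). Trp53 itself was at 57.7 and 47.1 CPM in WT and at 19.8 and 22.5 CPM in p53-/- SI, a log2 fold change of -1.31 (edgeR adjusted p = 0.0602, DESeq2 adjusted p = 1.32e-05). Of 12 known p53 target genes, 6 were lower in p53-/- SI past the edgeR threshold, as were 31 of all 16094 tested genes. All 12 were lower in both p53-/- libraries than in both WT libraries, as were 3922 of all tested genes. Their median log2 fold change was -1.76, and -1.64 without library 10.

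Most antiviral ISGs were at higher levels in the irradiated SI of p53-/- mice, and none passed the test used for all genes. CPM is the level used throughout, the counts of a gene per library size after TMM factors set the libraries on a common scale. Summed over the 35 genes they were 1318 and 1532 CPM in WT libraries 7 and 8 and 2441 and 2376 CPM in p53-/- libraries 9 and 10. The log2 fold change of p53-/- over WT was above 0 for 32 members and below 0 for Trim25, Oasl1 and Lgals3bp. Its median was 1.46 (quartiles 0.54 and 1.89, range -0.10 to 3.34), beside a median of -0.01 over the 16094 genes tested. It exceeded 1 in 23 of the 35 members (65.7%) and in 11.4% of all genes tested, and 7 members exceeded 2. The p-values rest on 2 libraries a genotype and on spreads that the tests pooled in part across genes, and they reach no further than these samples.

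With edgeR's quasi-likelihood test and Benjamini-Hochberg adjustment over all genes, 0 of the 35 members had an adjusted p under 0.05, where 0.298% of all tested genes were called higher. The smallest adjusted p of a member was 0.0583 and 6 members were under 0.1. At an unadjusted p under 0.05 by the same test, 24 members were higher and 0 lower, against 10% of all tested genes that were higher. DESeq2, run as an alternative, called 17 members higher and 0 lower, against 5.47% of the genes to which it gave an adjusted p. The likelihood ratio test of edgeR also called 17, against 5.18% of all tested genes called higher. Both p53-/- libraries lay above both WT libraries in 28 members, against 26.4% of all tested genes, and below both in 1, Lgals3bp. In 13 of these 28 the gap between the nearest libraries of the genotypes was over 1 on the log2 scale. The share of all tested genes with such a gap was not computed, so the 13 have no background to be set against.

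In the 35 members, the WT libraries differed from each other more than the p53-/- libraries did, with median absolute log2 differences of 0.72 and 0.31. Library 8 was above library 7 in 30 of them, with a median difference of 0.72 on the log2 scale, while the median over all tested genes was -0.06. Between the p53-/- libraries, 21 members were higher in library 10 and 14 in library 9, and the median difference was 0.14. The number of calls depended on which libraries were used. With edgeR, 6 members passed without library 7 (1.87% of all genes tested there were called higher), 18 without library 8 (3.98%), 0 without library 9 (0.452%) and 0 without library 10 (0%), where the single library left in a genotype was assumed to vary like the pair in the other. At an unadjusted p under 0.05, 24, 27, 23 and 15 members were higher without libraries 7, 8, 9 and 10, against 10.1%, 15.3%, 7.65% and 4.59% of all genes tested in those fits. The median log2 fold change of the members was 1.03, 1.72, 1.53 and 1.27 without libraries 7, 8, 9 and 10, and 30 members stayed above 0 whichever library was left out.

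**Figure D1:**
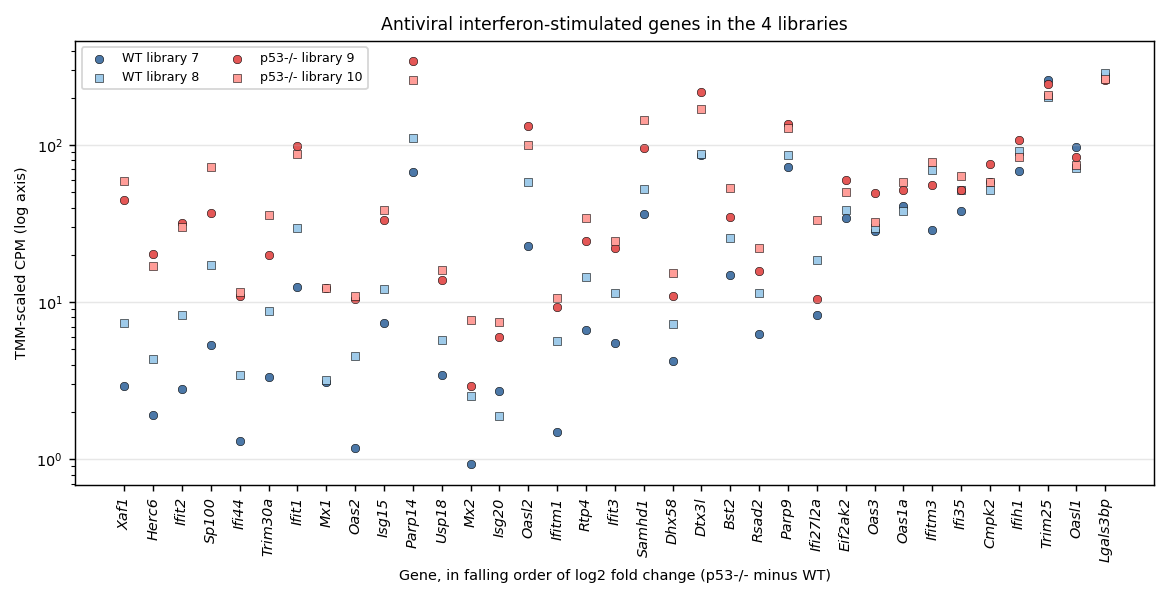
TMM-scaled CPM of the 35 genes on a log axis in WT (p53+/+) libraries 7 and 8 (blue) and p53-/- libraries 9 and 10 (red), in falling order of the log2 fold change. Both red points lie above both blue points in 28 genes, from Xaf1 at the left (2.91 and 7.33 against 45.1 and 58.8 CPM), and the groups run together at the right, where Trim25 was at 262 and 201 against 246 and 208 CPM.

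Among the genes of RNA sensing, Ifih1, Trim25 and Oasl1 overlapped between genotypes, while Dhx58 and Oasl2 were higher in both p53-/- libraries. Ifih1 encodes MDA5, a sensor of long double-stranded RNA, and was at 68.3 and 92.2 CPM in WT and 108 and 84.0 CPM in p53-/- libraries. The genotypes overlapped, and its log2 fold change was 0.26 with a 95% interval from -0.31 to 0.82. Dhx58, which encodes the regulatory helicase LGP2, was at 4.21 and 7.27 against 11.0 and 15.3 CPM and did not overlap. Its log2 fold change was 1.19 (SE 0.400, edgeR adjusted p = 0.220, DESeq2 adjusted p = 0.110). Trim25, a ubiquitin ligase that modifies RNA sensors, was at 262 and 201 against 246 and 208 CPM. Its genotypes overlapped, and its log2 fold change of -0.03 changed sign with library size scaling, under both other filters, and without library 7 or library 10.

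Oasl1 and Oasl2 are neighbours on chromosome 5 with no other protein-coding gene between them, and they differed in what the data show. Oasl2, an enzyme related to the oligoadenylate synthetases, was at 22.96 and 57.9 CPM in WT and 132 and 101 CPM in p53-/- libraries. Both p53-/- libraries were above both WT libraries, and the log2 fold change was 1.52 (SE 0.445, edgeR adjusted p = 0.179, DESeq2 adjusted p = 0.0108). Oasl1, known in mice as a brake on translation of Irf7, was at 97.4 and 71.1 against 83.9 and 74.6 CPM. Its genotypes overlapped, and its log2 fold change was -0.09 (95% interval -0.61 to 0.43), above 0 without library 7 (0.17) or library 10 (0.05).

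All 8 genes that bind or cut RNA or stop translation were higher in both p53-/- libraries than in both WT libraries, with a median log2 fold change of 1.502, and 3 of them, the Ifit genes, passed DESeq2. Ifit1 binds RNA whose cap lacks the methyl marks of host mRNA, and was at 12.6 and 29.7 CPM in WT and at 98.8 and 87.3 CPM in p53-/- libraries. The p53-/- libraries were close to each other and the WT libraries apart, with a log2 fold change of 2.14 (95% interval 1.12 to 3.16, edgeR adjusted p = 0.103, DESeq2 adjusted p = 2.62e-05). Ifit2 was at 2.78 and 8.30 against 31.8 and 30.0 CPM, a log2 fold change of 2.48 (95% interval 1.17 to 3.79, edgeR adjusted p = 0.112). Ifit3 was at 5.51 and 11.5 against 22.2 and 24.5 CPM, a log2 fold change of 1.46 (95% interval 0.47 to 2.45, edgeR adjusted p = 0.162). In each of the 3 genes WT library 8 was above WT library 7.

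The Ifit genes belong to a cluster of near copies, so reads could have been split among them. Ifit1bl1, a copy of Ifit1 that is not a member, was at 14.0 and 33.3 CPM in WT and 531 and 367 CPM in p53-/- libraries, and rose by a log2 fold change of 4.25 (SE 0.496, edgeR adjusted p = 0.0494). That call was lost without library 9 (adjusted p = 0.0638) or library 10 (0.306), as under other scalings and the stricter filter, while DESeq2 gave an adjusted p of 2.65e-21. Ifit1bl2 was at 220 and 177 against 187 and 166 CPM, and Ifit3b at 1.92 and 3.96 against 4.996 and 5.87 CPM. Of 11 tested copies of the members that are not themselves members, 1 was higher past the threshold, 0 were lower, and the median log2 fold change was 0.38. Of all tested genes, 0.298% were called higher.

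The oligoadenylate synthetases make the short adenylate chains that switch on RNase L. Oas2 was at 1.18 and 4.54 CPM in WT and 10.5 and 10.9 CPM in p53-/- libraries, a log2 fold change of 1.90 with a wide 95% interval of 0.26 to 3.55. Its neighbour Oas3 was at 28.6 and 29.7 against 49.7 and 32.4 CPM, and library 9 alone was well above WT. Oas1a was at 41.2 and 37.9 against 52.0 and 58.2 CPM, a log2 fold change of 0.48 (SE 0.155). The edgeR adjusted p was 0.230 for Oas2, 0.370 for Oas3 and 0.209 for Oas1a. Oas1g, a near copy of Oas1a, was at 22.2 and 23.2 against 28.4 and 33.2 CPM.

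Isg20, an exonuclease that degrades single-stranded RNA, was at 2.72 and 1.88 CPM in WT and 6.005 and 7.46 CPM in p53-/- libraries. It was one of 5 members that were higher in library 7 than in library 8, and its log2 fold change was 1.54 (SE 0.418, edgeR adjusted p = 0.163). Eif2ak2 encodes PKR, the kinase that stops translation on binding double-stranded RNA, and was at 34.5 and 38.5 against 59.7 and 50.5 CPM. The genotypes did not overlap and the log2 fold change was 0.59 (95% interval 0.17 to 1.01), smaller than the median of the members.

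The 3 genes of ISG15 conjugation were all higher, all non-overlapping and all past the threshold of DESeq2. Isg15, a ubiquitin-like protein that is attached to other proteins or secreted, was at 7.36 and 12.2 CPM in WT and 33.4 and 38.6 CPM in p53-/- libraries. Its mean was 9.78 ± 3.42 CPM in WT and 36.0 ± 3.71 CPM in p53-/- SI (SD, n = 2). The log2 fold change was 1.88 (95% interval 1.12 to 2.64, edgeR adjusted p = 0.0775, DESeq2 adjusted p = 2.05e-05). Herc6, the ligase that attaches it in mice, was at 1.92 and 4.35 against 20.4 and 16.9 CPM, a log2 fold change of 2.57 (95% interval 1.41 to 3.73, edgeR adjusted p = 0.0943). Usp18, which removes Isg15 and dampens the type I receptor, was at 3.47 and 5.77 against 13.9 and 16.1 CPM, a log2 fold change of 1.70 (95% interval 0.77 to 2.62, edgeR adjusted p = 0.118). The attaching and the removing enzyme were thus higher in the same libraries.

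Of the 5 genes that act on virus entry, trafficking or release, Mx1 had the closest replicates and the only DESeq2 call. Mx1 encodes a GTPase that traps viral nucleoproteins and is carried in defective form by most laboratory strains. It was at 3.09 and 3.18 CPM in WT and at 12.4 CPM in both p53-/- libraries, a log2 fold change of 1.98 (95% interval 1.19 to 2.77, edgeR adjusted p = 0.0773, DESeq2 adjusted p = 8.20e-05). Leaving out any 1 library moved it only between 1.97 and 2.03. Mx2 lay at 0.928 and 2.53 against 2.94 and 7.71 CPM, with 15 counts in library 7, and its 95% interval reached from -0.20 to 3.44.

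Bst2 encodes tetherin, which holds budding virions at the cell surface, and was at 14.9 and 25.6 CPM in WT and 34.8 and 53.7 CPM in p53-/- libraries. The genotypes did not overlap and the log2 fold change was 1.13 (SE 0.344, edgeR adjusted p = 0.192, DESeq2 adjusted p = 0.0516). Ifitm1 and Ifitm3, neighbours on chromosome 7 whose products block the fusion of virus and cell membranes, differed in their pattern. Ifitm1 was at 1.49 and 5.64 against 9.34 and 10.7 CPM and did not overlap. Ifitm3 was at 29.0 and 69.6 against 55.8 and 77.6 CPM, overlapped, and had a log2 fold change of 0.44, or -0.06 without library 7. Library 7 was the lowest in both genes.

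Samhd1 had the clearest difference among the genes of nucleotide and lipid metabolism. It encodes a hydrolase that empties the pool of deoxynucleotides, and was at 36.3 and 52.5 CPM in WT and 95.9 and 144 CPM in p53-/- libraries, a log2 fold change of 1.44 (95% interval 0.72 to 2.15, edgeR adjusted p = 0.106, DESeq2 adjusted p = 0.000313). Rsad2 and Cmpk2 are neighbours on chromosome 12. Rsad2 encodes viperin, which turns a nucleotide into a chain terminator, and was at 6.31 and 11.5 against 15.8 and 22.1 CPM (log2 fold change 1.09, 95% interval 0.13 to 2.05). Cmpk2, which supplies viperin with its substrate, was at 58.2 and 51.9 against 75.7 and 58.6 CPM (log2 fold change 0.29, 95% interval -0.18 to 0.76). Library 10 exceeded the higher WT library by less than 1 CPM in Cmpk2 and by more than 10 CPM in Rsad2.

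The ADP-ribosylation genes lie side by side on chromosome 16 in the order Parp14, Dtx3l and Parp9, with no other protein-coding gene between them, and all 3 passed DESeq2. Parp9 and Dtx3l products form a complex that marks histones and viral proteins, and Parp14 adds ADP-ribose and tunes Stat signals. Parp14 was at 67.8 and 112 CPM in WT and 344 and 260 CPM in p53-/- libraries, a log2 fold change of 1.75 (95% interval 0.98 to 2.52, edgeR adjusted p = 0.0912, DESeq2 adjusted p = 2.10e-06). Dtx3l was at 87.0 and 87.5 against 217 and 169 CPM, a log2 fold change of 1.15 (95% interval 0.66 to 1.63, edgeR adjusted p = 0.0849). Parp9 was at 72.5 and 87.0 against 137 and 129 CPM, a log2 fold change of 0.74 (95% interval 0.30 to 1.17, edgeR adjusted p = 0.134). In these genes library 9 was above library 10.

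Xaf1 had the largest difference of all 35 genes. It encodes a partner of the apoptosis inhibitor XIAP and is known to favour cell death, and it was at 2.91 and 7.33 CPM in WT and 45.1 and 58.8 CPM in p53-/- libraries. The means were 5.12 ± 3.13 and 52.0 ± 9.75 CPM (SD, n = 2), a fitted fold of 10.2. Its log2 fold change was 3.34 (95% interval 2.18 to 4.51, edgeR adjusted p = 0.0583, DESeq2 adjusted p = 3.04e-10), and it was 2.83 to 4.15 with any 1 library left out. By unadjusted p it ranked at place 152 of all tested genes.

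Sp100, Trim30a and Ifi44 followed among the remaining genes. Sp100, a component of nuclear bodies that silence viral DNA, was at 5.32 and 17.1 CPM in WT and 36.9 and 72.2 CPM in p53-/- libraries, a log2 fold change of 2.28 with a 95% interval of 0.75 to 3.82. Trim30a, a mouse ubiquitin ligase that dampens inflammatory signals, was at 3.34 and 8.76 against 19.99 and 35.9 CPM (log2 fold change 2.21), and its copy Trim30d had a log2 fold change of 0.38. Ifi44, a widely used marker of interferon exposure, was at 1.30 and 3.44 against 11.0 and 11.5 CPM (log2 fold change 2.25). The edgeR adjusted p was 0.161 for Sp100, 0.145 for Trim30a and 0.136 for Ifi44, and all 3 passed DESeq2. In each of them WT library 7 was the lowest of the 4 libraries.

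The rest of the list ran from a clear to no difference. Rtp4, a chaperone that restricts flaviviruses, was at 6.62 and 14.4 CPM in WT and 24.6 and 34.1 CPM in p53-/- libraries (log2 fold change 1.48, edgeR adjusted p = 0.172, DESeq2 adjusted p = 0.0236). Ifi27l2a, a small mitochondrial protein, was at 8.23 and 18.6 against 10.4 and 33.5 CPM. Its libraries interleaved, and its log2 fold change of 0.71 was -0.32 without library 10. Ifi35 was at 38.3 and 52.0 against 51.6 and 64.0 CPM and overlapped. Lgals3bp, a secreted glycoprotein that binds galectins, was at 278 and 287 against 261 and 265 CPM, with a 95% interval from -0.55 to 0.34.

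**Figure D2:**
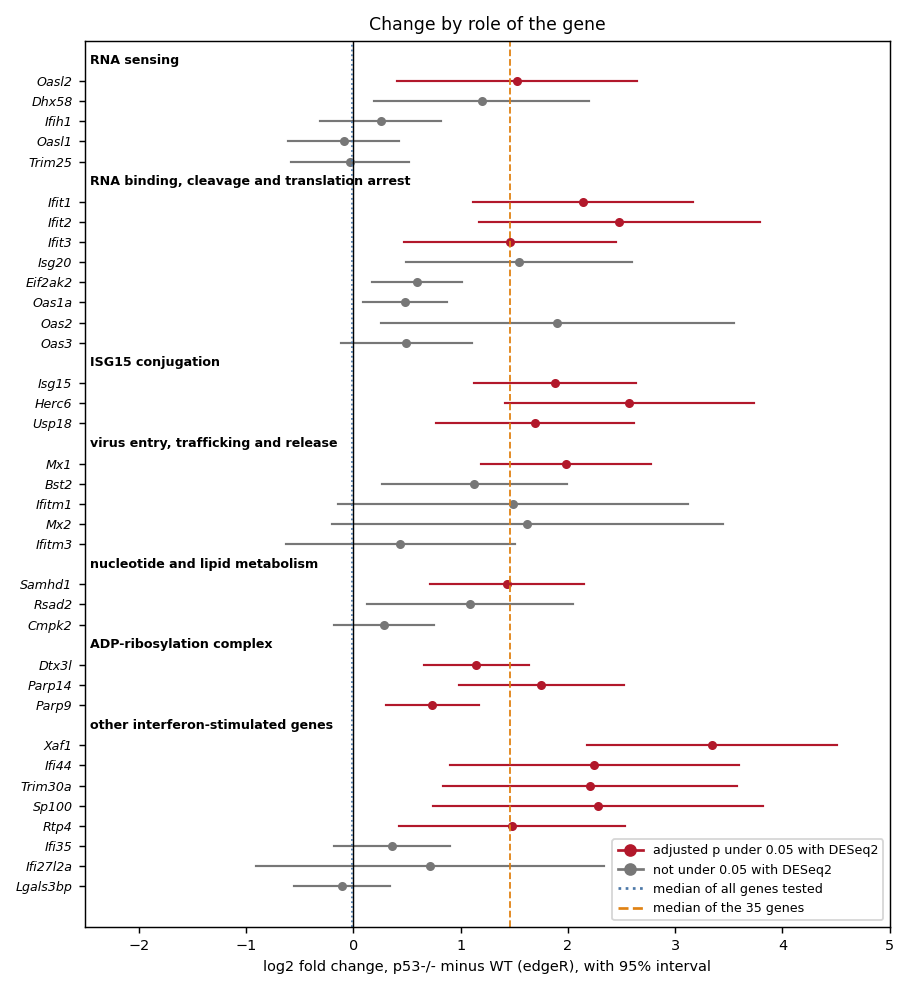
Log2 fold change (p53-/- minus WT, edgeR, x axis) of each of the 35 genes with its 95% interval, grouped by role, with red for a DESeq2 adjusted p under 0.05. The interval lies above 0 in 24 genes, the orange line marks the members' median of 1.46 and the dotted line the median of all tested genes, -0.01.

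Members that were already abundant in WT SI had the smaller differences. Per kilobase of exon, the highest WT levels were those of Lgals3bp (99.4 CPM per kb), Ifitm3 (72.7), Trim25 (40.2) and Oasl1 (32.3), and the lowest was that of Herc6 (0.337). For the 10 members with the highest level in WT, from 15.2 CPM per kb upward, the log2 fold changes had a median of 0.46 and 2 of them exceeded 1. The other 25, at up to 13.2 CPM per kb, had a median of 1.62 and 21 exceeded 1. Both quantities were computed from the same WT libraries, so they are not independent. In p53-/- SI the order of levels was Ifitm3 (98.4 CPM per kb), Lgals3bp (92.5), Bst2 (49.0), Isg15 (47.7) and Ifi27l2a (47.5). The first pair stood well apart, and the last 3 were within 2 CPM per kb of each other.

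The interferons themselves were barely counted. Of 18 type I interferon genes listed, 13 had no count in any library, 5 had a count in at least one, and the largest count of any of them was 2. Their summed counts were 1, 1, 4 and 1 in libraries 7 to 10, and 3 counts correspond to 0.131 to 0.195 CPM in these libraries. The type III genes Ifnl2 and Ifnl3 had no counts. Ifng, the gene of interferon gamma, had 0 and 2 counts in WT and 8 and 13 counts in p53-/- libraries, a ratio of 7.72 after scaling with an exact 95% interval of 1.89 to 67.9 that covers counting error only. No interferon gene passed the filter on low counts with all 4 libraries, and in the alternatives that kept Ifng its adjusted p was 0.224 to 0.593.

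Most receptor chains were lower rather than higher, and none passed the edgeR test. Of the 6 tested, 5 had a log2 fold change below 0, and the median was -0.51. Lower in both p53-/- libraries were 4 of the 6, as were 3922 of all 16094 tested genes. At an unadjusted edgeR p under 0.05, 2 were lower, as were 1275 of all tested genes. Ifngr1, the ligand-binding chain for interferon gamma, was at 341 and 317 CPM in WT and 219 and 198 CPM in p53-/- libraries, a log2 fold change of -0.66 (edgeR adjusted p = 0.171, DESeq2 adjusted p = 0.00244). Ifnar1 was at 73.3 and 58.3 against 57.1 and 58.5 CPM and overlapped. Ifnar2 was at 12.3 and 11.6 against 9.34 and 14.7 CPM, a log2 fold change of 0.007. Ifnlr1, the epithelial receptor for type III interferon, was at 38.6 and 28.7 against 25.1 and 22.2 CPM.

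Of 12 kinases, STATs and IRFs, 0 were called by edgeR, 6 had an unadjusted p under 0.05 and were higher, and 5 passed DESeq2. Their median log2 fold change was 0.35. Over all tested genes, 0.298% were called higher by edgeR and 10% were higher at that unadjusted p. DESeq2 called 5.47% of the genes to which it gave an adjusted p higher. Of the ISRE-binding complex, Stat2 was at 46.5 and 59.9 CPM in WT and 94.0 and 88.6 CPM in p53-/- libraries, a log2 fold change of 0.78 (95% interval 0.32 to 1.24, edgeR adjusted p = 0.134, DESeq2 adjusted p = 0.0189). Irf9 was at 38.4 and 41.0 against 58.1 and 60.1 CPM, a log2 fold change of 0.57. Irf1, a factor induced by interferon gamma, was at 135 and 65.5 against 252 and 265 CPM (log2 fold change 1.37), and Irf8, a factor of myeloid and B cells, at 85.7 and 79.5 against 166 and 224 CPM (1.24). Irf7, the amplifier of type I interferon, was at 168 and 149 against 173 and 174 CPM (log2 fold change 0.13, 95% interval -0.30 to 0.56). Irf3 was at -0.22 on the same scale.

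A few of the 48 genes that edgeR called higher lay in the lists around the members. Among 67 tested genes of the other interferon pathway lists, 5 were called higher and 0 lower. Of all tested genes, 0.298% were called higher. The median log2 fold change of the 67 was 0.89, and 11 of them were below 0. At an unadjusted edgeR p under 0.05, 36 were higher and 3 lower, as were 1617 and 1275 of all 16094 tested genes. DESeq2 called 28 higher and 2 lower, against 812 and 663 of the 14845 genes to which it gave an adjusted p. Zbp1, a sensor of Z-form nucleic acid that triggers cell death, rose from 8.29 and 9.80 CPM in WT to 107 and 117 CPM in p53-/- libraries, a log2 fold change of 3.63 (SE 0.181, edgeR adjusted p = 0.00815). It was the only one of 15 tested nucleic acid sensing genes to pass, where the median was 0.59. Sting1, the adaptor of cytosolic DNA sensing, was at 3.59 and 6.42 against 17.8 and 26.9 CPM (log2 fold change 2.16, edgeR adjusted p = 0.101), and Ddx58, the gene of RIG-I, at 36.2 and 49.7 against 61.0 and 68.3 CPM (0.59).

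Nlrc5, which switches on MHC class I genes and restrains interferon signals, rose from 1.49 and 3.31 to 32.0 and 43.6 CPM, a log2 fold change of 3.98 (edgeR adjusted p = 0.0456), and was the one call among 6 inhibitors. Socs1, the main brake on the receptor kinases, was at 6.19 and 14.1 against 33.3 and 52.8 CPM (log2 fold change 2.08, edgeR adjusted p = 0.119). The remaining calls were Psmb8 and Psmb9, immunoproteasome subunits that rose by log2 fold changes of 2.21 and 2.02 (edgeR adjusted p = 0.0271 and 0.0416), and Irgm1. Nlrc5 passed in 5 of the 10 alternatives, and its call was lost with RLE factors, with library size only, with at least 10 counts in every library and without library 9 (adjusted p = 0.0629). Psmb9 was lost with library size only. None of these 5 genes passed without library 10, where edgeR called no gene at all and 1201 genes had an unadjusted p under 0.05. Zbp1 then had an adjusted p of 0.151 and a log2 fold change of 3.62.

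The GTPases induced by interferon gamma, which attack the vacuoles of intracellular microbes, are a neighbouring class of interferon-stimulated genes. Of 16 tested, all 16 were higher in both p53-/- libraries, 15 had an unadjusted p under 0.05, 12 passed DESeq2 and 1 passed edgeR. Their median log2 fold change was 2.47. Of all tested genes, 26.4% were higher in both p53-/- libraries, 10% were higher at that unadjusted p, and 0.298% were called higher by edgeR. DESeq2 called 5.47% of the genes to which it gave an adjusted p higher. Irgm1, the regulator of the family, rose from 24.3 and 28.4 to 82.5 and 100 CPM (log2 fold change 1.79, edgeR adjusted p = 0.0410), a call that was also lost with library size only, with at least 10 counts in every library and without library 9 (adjusted p = 0.0635). Their summed level was 63.5 and 137 CPM in WT and 480 and 605 CPM in p53-/- libraries, and library 8 was above library 7 in 15 of them, as it was in 30 of the 35 antiviral genes. The 12 genes of MHC class I and peptide loading had a median of 0.66, and all 12 were higher in both p53-/- libraries, against 26.4% of all tested genes. Whether these lists differ from the antiviral genes was not tested. Of 5 genes linked to p53 in other settings (Irf5, Irf9, Tlr3 and the members Isg15 and Eif2ak2), all 5 were higher in both p53-/- libraries. Of all tested genes, 26.4% were. The median of the 5 was 0.59, and the 95% interval of Tlr3 ran from -0.19 to 0.73. The study cites Irf9 and Tlr3 as genes that p53 induces on viral infection.

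**Figure D3:**
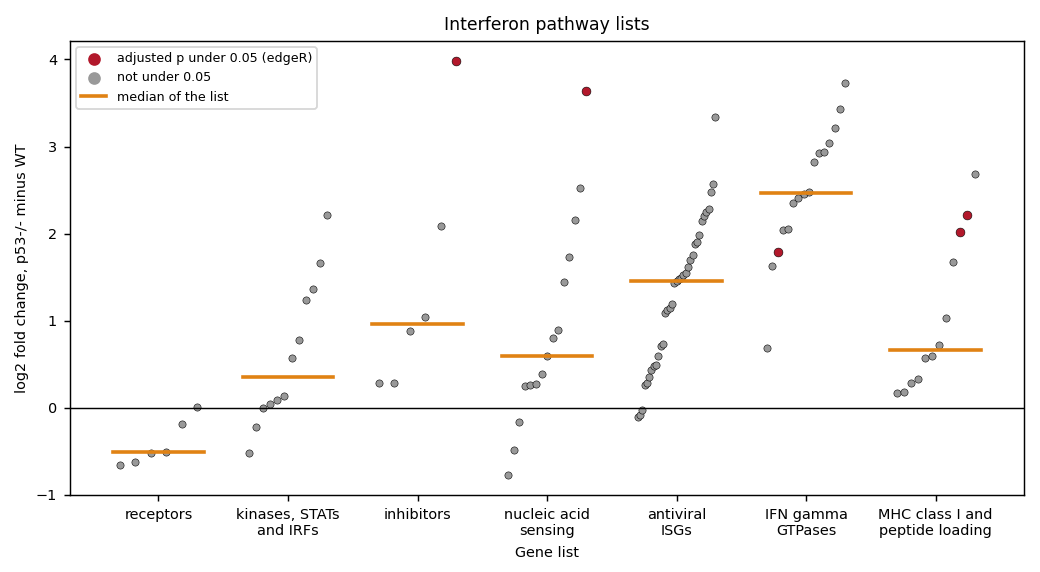
Log2 fold change (p53-/- minus WT, y axis) of each tested gene in 7 lists of the interferon pathway, with the median of each list in orange and edgeR adjusted p under 0.05 in red. The receptors lie lowest (median -0.51), the antiviral genes have a median of 1.46 with no red point, and the interferon gamma GTPases lie highest (median 2.47).

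Transcripts of leukocytes were also higher in p53-/- SI. However, none of the leukocyte, T cell, B cell, macrophage or dendritic cell markers passed the edgeR threshold. All 10 T cell markers and 5 of 6 tested B cell markers passed DESeq2, which called 5.47% of the genes with an adjusted p higher. Of these markers, 2 of the T cell and 4 of the tested B cell genes had at most 3 counts in each library of a genotype. The summed level of 3 pan-leukocyte markers was 18.4 and 48.5 CPM in WT libraries 7 and 8 and 120 and 511 CPM in p53-/- libraries 9 and 10, and all 3 were higher in both p53-/- libraries. The 10 T cell markers summed to 8.23 and 15.8 against 73.3 and 147 CPM, and all 10 were higher in both p53-/- libraries. Of all tested genes, 26.4% were. The 7 B cell markers summed to 1.11 and 1.82 against 22.6 and 465 CPM. The 7 macrophage markers were less far apart, at 150 and 236 against 263 and 341 CPM, as were the plasmacytoid dendritic cell markers (114 and 122 against 132 and 266 CPM), whose defining marker Siglech had 0, 1, 6 and 65 counts. The 9 enterocyte markers summed to 27604 and 27263 CPM in WT and 21097 and 17472 CPM in p53-/- libraries, so that epithelial transcripts were abundant in every library, while Lct had only 10 to 16 counts. Stromal and endothelial markers were lowest in library 7, at 87.1 CPM against 343 to 475 CPM in the others.

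Within p53-/- SI the antiviral genes summed to similar levels in libraries 9 and 10, while single genes differed in both directions. Log2 differences of library 10 over library 9 ran from -0.61 (Oas3) to 1.64 (Ifi27l2a). Library 10 had 511 CPM of leukocyte markers against 120 CPM in library 9, while the summed antiviral genes were at 2376 and 2441 CPM. That sum weighs abundant members most, such as Lgals3bp (261 and 265 CPM in libraries 9 and 10) and Parp14 (344 and 260 CPM). Of the 35, 14 were higher in library 9 and 21 in library 10. Sp100, Trim30a, Mx2 and Ifi27l2a were among those higher in library 10, and Parp14, Dtx3l, Oasl2 and Herc6 among those higher in library 9. Within WT SI, library 8 was above library 7 both in the leukocyte markers and in 30 of the 35 genes. The part of leukocyte number in the difference between genotypes was not tested.

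**Figure D4:**
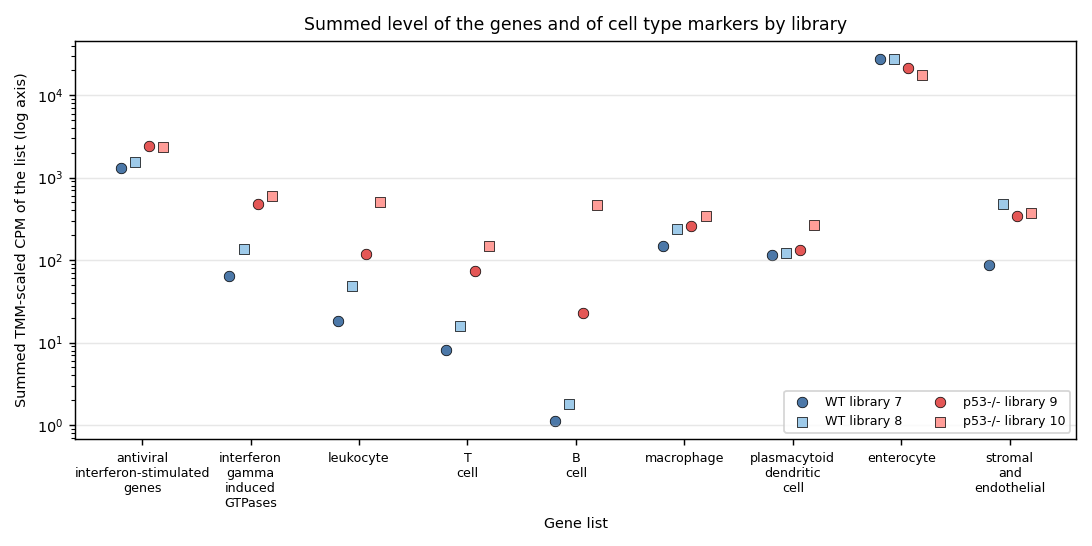
Summed TMM-scaled CPM (log axis) of the antiviral genes, the interferon gamma GTPases and 7 lists of cell type markers in WT (p53+/+) libraries 7 and 8 (blue) and p53-/- libraries 9 and 10 (red). The antiviral genes lie at 2441 and 2376 CPM in p53-/- libraries 9 and 10. In the same libraries the T cell markers lie at 73.3 and 147 CPM and the macrophage markers at 263 and 341 CPM. The B cell markers, which lie furthest apart there, are at 22.6 and 465 CPM.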

How the data were processed

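SI RNA of 4 irradiated mice (2 WT, 2 p53-/-) was sequenced by a service company. The values that the authors deposited are raw counts, not normalized, for 56748 genes in 1 table. The submitters' processing notes name fastp, HISAT2 2.0.5, featureCounts 1.5.0-p3 and DESeq2 1.20.0, without their settings. The genome build, the annotation and the strand of the counting are not given in the sources used here, so that near copies and overlapping genes may have shared or lost reads. Column names give the genotype and a library number but not the replicate of the labels, and 0 columns belonged to other samples.

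These counts were filtered with filterByExpr and scaled with TMM factors in edgeR 4.0.16 (R 4.3.3, limma 3.58.1), and the 16094 genes left were tested two-sided with the quasi-likelihood test, with Benjamini-Hochberg adjustment over all of them and a threshold of 0.05. Differences are log2 fold changes of p53-/- over WT with their standard error (SE) or 95% interval, and log2 differences between libraries used CPM plus 0.5. Levels per kb used exon lengths of GENCODE M21, which holds 91.9% of the gene identifiers and all 35 members. The alternatives were RLE factors, library size only, DESeq2 1.42.0 (1249 genes got no adjusted p), the likelihood ratio test of edgeR, a minimum of 10 counts per library, no filter, and each library left out. The scripts were tested on simulated data.

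The genes named are the 35 members by role, genes of the pathway and paralog lists, Trp53 and cell type markers. The members and the lists, written from general knowledge, were chosen with earlier results of these data known. Promoters are RefSeq windows, and neighbours were taken from RefSeq genes of GRCm38.p6. Some genes of the lists are not reported here by name.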

Additional observations from a re-analysis of the deposited data

How the results depend on the processing

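The median log2 fold change of the antiviral genes was 1.46 with all libraries and lay between 1.03 and 1.72 with a library left out. Under all 10 alternatives it moved by less than 0.478 on the log2 scale. This bar was the larger SD, within a genotype, of the members' mean log2 CPM. It came from the same libraries, so leaving a library out could hardly exceed it. For those fits it is no measure of stability. The counts of calls depended on the test, the filter and the libraries, and the cause was not tested. Genes called higher and lower, 48 and 31 with edgeR's quasi-likelihood test, were 26 and 20 with library size only, 812 and 663 with DESeq2, 1433 and 761 with no filter, 833 and 462 by likelihood ratio test, and 24 and 18 with at least 10 counts in every library. They were 0 to 680 and 0 to 344 with each library left out. Antiviral genes called were 25 with no filter and 17 by both DESeq2 and the likelihood ratio test, against 0 at first. The fit with no filter tested 27841 genes, of which 1433 were called higher. Its prior degrees of freedom were infinite, against 3.45 at first, so each gene's spread was set by the trend over genes alone. The calls with no filter therefore used no gene's own spread between libraries. Calls in either direction among the other pathway genes, 5 at first, were 2 with library size only and 3 with at least 10 counts. They were 30 with DESeq2 (28 higher and 2 lower), 37 with no filter and 28 by likelihood ratio test. With a library left out, the median log2 fold change of these genes was 0.71 to 1.19, against 0.89. Some log2 fold changes near 0 turned in sign. Trim25 was at 0.0482 with library size only, 0.0194 with no filter and 0.0487 with at least 10 counts, and ranged from -0.21 to 0.18 with a library left out (above 0 without library 7 or 10). The same range was -0.30 to 0.17 for Oasl1 (above 0 without library 7 or 10), -0.0554 to 1.19 for Ifitm3 (lowest without library 7) and -0.32 to 1.41 for Ifi27l2a (lowest without library 10). No paired analysis was possible because the column names carry none of the replicate numbers of the labels. Members with few counts, such as Mx2 with 15 counts in library 7, had wide intervals.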
